A study of Homo sapiens with 5 samples.

Results

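The extracellular proteases that remodel matrix, and the inhibitors that hold them in check, were examined in 2 human pigment cell lines that both carried an shRNA against BPTF, the large subunit of the NURF chromatin remodelling complex. Members were the protein-coding genes whose GENCODE 29 symbol is MMP plus a number, ADAMTS plus a number, or TIMP1 to TIMP4. The rule found 46 genes, which are 23 matrix metalloproteases (MMP), 19 ADAMTS proteases and 4 tissue inhibitors of metalloproteases (TIMP). Of these, 39 had an entry in the count files of both lines. Another 3 (MMP7, MMP13 and MMP27) were listed for 501Mel alone, and 1 (MMP20) was listed for Hermes 3A alone. MMP12, MMP26 and MMP28 were listed for neither line, so their levels could not be read.

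The first group was 501Mel, a human melanoma line grown in RPMI with fetal calf serum, with 2 RNA-seq libraries. The second was Hermes 3A, an untransformed human melanocyte line, with 3 libraries, grown in RPMI with serum plus TPA, cholera toxin, stem cell factor and endothelin-1. Both groups had been infected with lentivirus expressing shBPTF and selected for 5 days with 3 μg/ml puromycin. The methods name 2 shBPTF constructs and the labels do not say which was used. Cells with a control shRNA are not analysed here, so the comparison is between silenced lines and carries no information on the effect of silencing. The lines also differ in medium, and line and medium cannot be told apart. Each line is represented by repeat libraries of a single line, and nothing in the labels says that the libraries came from separate cultures, so the p-values measure the spread between these libraries, which may be technical.

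The libraries held 30073071 to 43032311 counts, and values below are CPM (counts per 1000000 counts of the library) scaled by edgeR's TMM factors. On that scale 3 counts were 0.0672 to 0.101 CPM. The differences are log2 of 501Mel over Hermes 3A from edgeR's quasi-likelihood test with Benjamini-Hochberg adjustment over 17918 genes. A gene was called when its adjusted p was under 0.05 and the lines differed at least 2-fold. Of all genes tested, 6145 (34.3%) were called, 3088 (17.2%) higher in 501Mel and 3057 (17.1%) lower. The silenced gene itself, BPTF, lay at 63.4 and 56.9 CPM in 501Mel and at 48.6, 50.7 and 54.8 CPM in Hermes 3A (log2 difference 0.23, adjusted p = 0.211). All 7 melanocyte lineage markers checked were detected and tested, with summed levels of 12261 to 19335 CPM in 501Mel and 31686 to 34740 CPM in Hermes 3A. PMEL or TYRP1 was the largest part of each sum, at 39.5% to 60.6%. Of the 7, PMEL and MLANA were called lower in 501Mel, 1 was called higher and 4 were not called, among them MITF (log2 difference 0.17, adjusted p = 0.433). DCT, a melanin synthesis enzyme, went against the sum, at 1030 and 1279 CPM in 501Mel and 7.82 to 13.2 CPM in Hermes 3A (log2 difference 6.87, adjusted p = 1.62e-05).

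MMPs are zinc endopeptidases made as inactive precursors. They cut collagens, laminins, growth factor precursors and one another, and some are tethered to the plasma membrane, where they act at the cell's edge. ADAMTS proteases are secreted relatives with thrombospondin repeats that anchor them in the matrix, and they process procollagens and trim large proteoglycans. The TIMPs bind the active site of these enzymes, and TIMP2 also forms a bridge on the cell surface through which MMP14 activates pro-MMP2. The balance of protease and inhibitor has long been studied in the invasion of melanoma.

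Of the 26 members that passed the filter on low counts, 3 were called higher in 501Mel and 17 lower, and 6 were not called. Over all genes tested, 17.2% were called higher and 17.1% lower. The median log2 difference of those 26 was -1.88, against 0.02 over all genes tested, whose quartiles were -0.76 and 0.81. The filter shapes this count, because 7 of the 26 reached 10 counts in every library of Hermes 3A and not in every library of 501Mel, 4 did the reverse, 13 did so in both lines and 2 in neither. In 21 members the CPM ranges of the lines did not overlap, 3 with 501Mel higher and 18 with 501Mel lower, where 35.7% and 34.0% of all tested genes were separated in those directions. By family, 8 of 14 tested ADAMTS genes, 6 of 9 tested MMP genes and 3 of 3 tested TIMP genes were called lower. Each of the 3 genes called higher was an ADAMTS, but with 17.2% of all genes called higher, so few calls do not set the families apart.

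**Figure D1:**
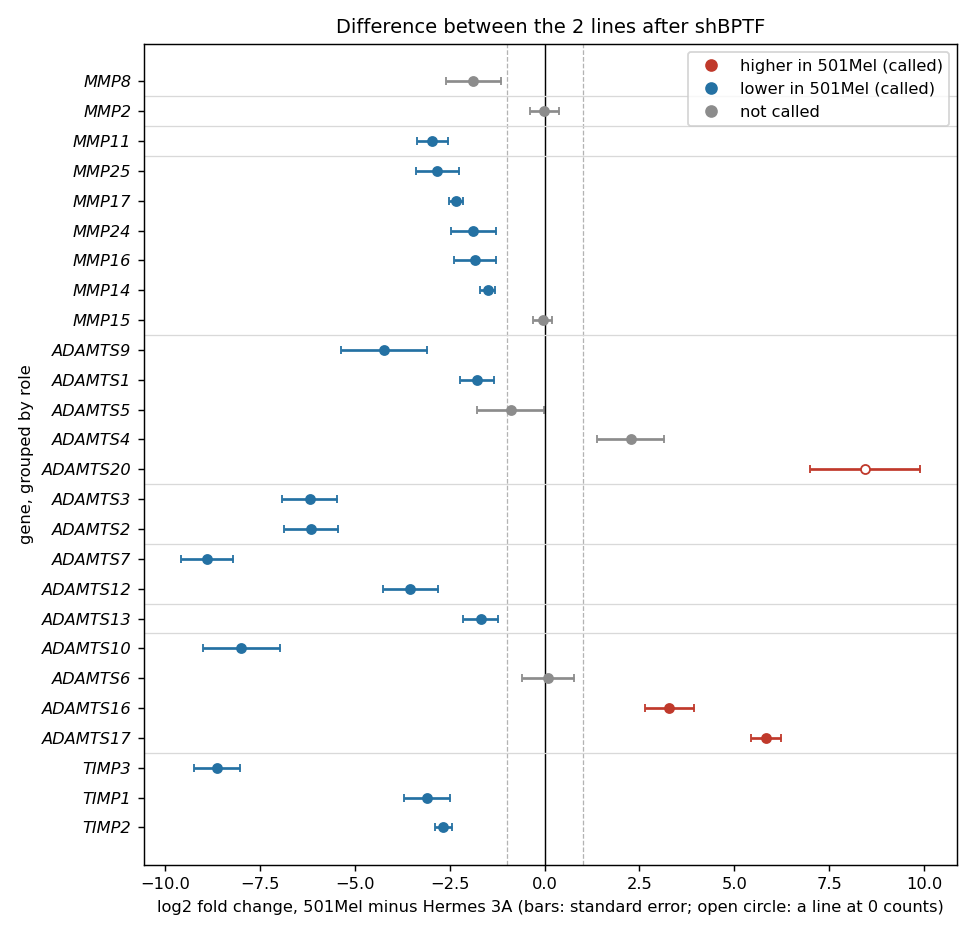
Log2 difference between 501Mel and Hermes 3A for each tested member (x axis), grouped by role, with bars for the standard error, colours for the call and an open circle for ADAMTS20, which had no count in Hermes 3A. The 17 members called lower lie left of zero, ADAMTS16, ADAMTS17 and ADAMTS20 lie to the right, and MMP2 and MMP15 lie near zero.

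Promoter sequences are shown for 4 genes that mark the range of levels found. TIMP3 had the largest difference among the inhibitors, MMP14 was the most abundant protease in CPM, ADAMTS17 was the protease with the most counts among those higher in 501Mel, and MMP10 was near 0 in both lines. Each run is the 250 bases before the transcription start, 5′ to 3′ on the gene's strand, from RefSeq on GRCh38.p14, and capitals mark matches to the AP-1 motif TGANTCA, the TATA box TATAAA or the E-box CACGTG, the 3 motifs searched on both strands.
TIMP3, chr22:32801455-32801704, plus strand: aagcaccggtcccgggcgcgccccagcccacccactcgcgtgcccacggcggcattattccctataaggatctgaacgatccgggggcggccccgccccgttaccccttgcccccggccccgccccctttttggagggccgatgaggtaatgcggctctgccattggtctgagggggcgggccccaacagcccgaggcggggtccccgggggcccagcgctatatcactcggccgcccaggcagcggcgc
MMP14, chr14:22836335-22836584, plus strand: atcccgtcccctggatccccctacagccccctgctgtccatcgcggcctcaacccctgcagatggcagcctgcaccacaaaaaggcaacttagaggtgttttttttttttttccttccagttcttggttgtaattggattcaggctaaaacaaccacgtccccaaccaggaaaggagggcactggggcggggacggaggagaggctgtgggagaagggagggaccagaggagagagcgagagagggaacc
ADAMTS17, chr15:100341976-100342225, minus strand: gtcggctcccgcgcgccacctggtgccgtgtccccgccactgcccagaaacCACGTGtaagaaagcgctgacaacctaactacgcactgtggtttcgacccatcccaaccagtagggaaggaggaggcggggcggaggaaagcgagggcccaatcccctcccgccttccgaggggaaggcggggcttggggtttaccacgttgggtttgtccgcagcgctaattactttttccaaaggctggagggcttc
MMP10, chr11:102780629-102780878, minus strand: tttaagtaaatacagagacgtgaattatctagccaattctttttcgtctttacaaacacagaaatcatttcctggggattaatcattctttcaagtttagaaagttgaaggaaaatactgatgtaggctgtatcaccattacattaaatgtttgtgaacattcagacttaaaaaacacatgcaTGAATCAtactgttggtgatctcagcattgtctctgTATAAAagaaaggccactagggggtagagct
Neither the TIMP3 nor the MMP14 run held any of these 3 motifs. In the ADAMTS17 run an E-box began at -199, and in the MMP10 run an AP-1 match began at -67 and a TATA box at -31, counted from the transcription start.

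The 4 promoters differ in base composition as well. Over the 300 bases that run from 250 before to 50 after the start, GC content was 72.67% for TIMP3 and 36.33% for MMP10, with a median of 67% over the 27 members that had a promoter entry and 58.33% over all 27305 promoters. AP-1 matches were found in 4 member promoters (ADAMTS12, MMP7, MMP10 and MMP20), against 7.764% of all promoters. TATA boxes were found in 7 (ADAMTS10, MMP7, MMP8, MMP10, MMP20, MMP21 and MMP26), against 11.95% of all promoters. E-boxes were found in 3 (ADAMTS6, ADAMTS17 and MMP21), against 7.435% of all promoters. Of the 20 called members, 13 had an entry, and among these AP-1 matched in ADAMTS12, TATA in ADAMTS10 and the E-box in ADAMTS17. A match describes these letters and does not mark a bound site.

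All 3 TIMPs that could be tested were lower in 501Mel, by 6.36-fold to 397-fold. TIMP3, the inhibitor that binds to the matrix itself and also restrains ADAM and ADAMTS proteases, had the largest difference of the family. Its counts were 19 and 64 in 501Mel and 20656, 14149 and 10562 in Hermes 3A, or 0.426 and 1.66 CPM against 526, 340 and 355 CPM. The lines were far apart, at a log2 difference of -8.63 (SE 0.610, adjusted p = 9.0e-05). The Hermes 3A level rests on deep counts, whereas the 501Mel level rests on few and moves the difference, to -7.94 without 501Mel replicate 1 and -9.90 without replicate 2.

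TIMP2, the inhibitor that couples MMP14 to pro-MMP2, was the most abundant of the family in both lines. It measured 256 and 370 CPM in 501Mel and 1911, 1999 and 2054 CPM in Hermes 3A. The ranges did not overlap, and the replicates of Hermes 3A lay close together (mean 1988 ± 71.8 CPM, SD, n = 3, against 313 ± 80.9 CPM, n = 2). The log2 difference was -2.67 (SE 0.231, adjusted p = 0.000194). TIMP1, a soluble inhibitor of most secreted MMPs, measured 36.0 and 7.82 CPM in 501Mel and 221, 172 and 173 CPM in Hermes 3A. The 501Mel libraries differed several-fold from each other, yet both lay below all 3 Hermes 3A libraries (log2 difference -3.10, SE 0.597, adjusted p = 0.00494). It was -4.60 without 501Mel replicate 1 and -2.40 without replicate 2, and called in both. TIMP4, which is best known from heart and brain, had 0 and 0 counts in 501Mel and 0, 2 and 3 counts in Hermes 3A and was not tested.

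By annotation (GENCODE 29, GRCh38), TIMP3 lies on chromosome 22 from 32801701 to 32863043, TIMP2 on chromosome 17 from 78852977 to 78925387, and TIMP1 on chromosome X from 47582313 to 47586789. TIMP1 and TIMP3 sit in introns of the antisense synapsin genes SYN1 and SYN3. TIMP4 likewise overlaps SYN2. Of the 5633 exonic bases of TIMP2, 565 overlap the same-strand gene CEP295NL or the antisense gene AC022966.1. The strand setting of the counting is not given in the sources used here, so reads of overlapping antisense transcripts cannot be told apart from those of the named gene.

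Within each library the inhibitors made up different shares of the TIMP total once divided by median transcript length. TIMP2 gave 56.7% and 89.5% of the summed CPM per kb in 501Mel and 54.7%, 62.9% and 63.1% in Hermes 3A. TIMP3 gave 0.0695% and 0.296% in 501Mel and 11.1%, 7.88% and 8.04% in Hermes 3A. TIMP1 supplied most of the remainder, at 43.2% and 10.2% against 34.2%, 29.2% and 28.8%. The TIMP2 and TIMP1 shares therefore overlapped between the lines and the TIMP3 shares did not. With union exon lengths the TIMP3 shares were 0.134% and 0.508% against 19.2%, 13.7% and 13.9%, still apart, and the TIMP2 shares were 65.9% and 92.4% against 56.8%, 65.7% and 65.8%, with no overlap by a narrow margin. The 3 shares are bound to each other, since they sum to nearly all of the total.

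**Figure D2:**
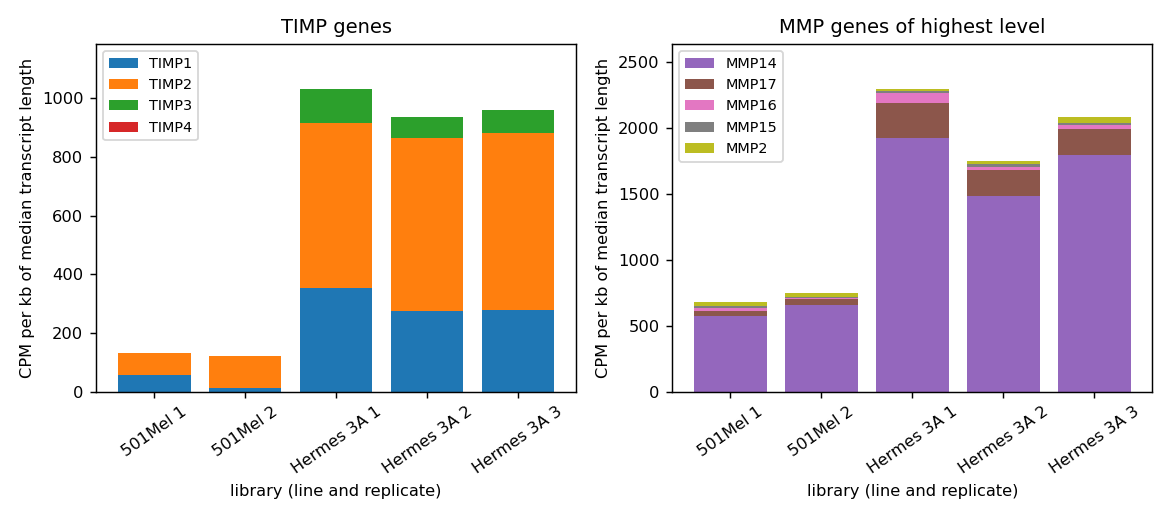
Summed level of the TIMP genes (left) and of the 5 MMP genes of highest level (right) in each library, stacked by gene in CPM per kb of median transcript length (y axis). The TIMP stacks reach 133 and 122 CPM per kb in 501Mel and 938 to 1031 in Hermes 3A, with the TIMP3 segment visible in Hermes 3A only, and MMP14 fills most of every MMP stack.

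Of the 6 membrane-anchored MMPs tested, 5 were lower in 501Mel, and their levels ran from MMP14, the highest protease of the set, to MMP25 among the low ones. MMP14 (MT1-MMP), the main pericellular collagenase and the activator of pro-MMP2, measured 330 and 379 CPM in 501Mel and 1114, 860 and 1038 CPM in Hermes 3A. It remained abundant in both lines while the ranges stayed apart (log2 difference -1.50, SE 0.189, adjusted p = 0.000882). MMP17 (MT4-MMP), which is held by a lipid anchor, measured 31.5 and 31.1 CPM in 501Mel and 192, 139 and 144 CPM in Hermes 3A. The lines were again separated, with nearly equal values in the 501Mel pair (log2 difference -2.34, SE 0.192, adjusted p = 0.000154). MMP25 (MT6-MMP), the other lipid-anchored member, was low in both lines at 0.246 and 0.208 CPM against 2.04, 1.95 and 0.908 CPM (log2 difference -2.83, SE 0.565, adjusted p = 0.00573). Of the 4126 exonic bases of MMP25, 1454 overlap the antisense gene MMP25-AS1.

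The other transmembrane members had a wider spread. MMP16 (MT3-MMP), another activator of pro-MMP2, measured 17.5 and 7.92 CPM in 501Mel and 78.7, 29.6 and 28.1 CPM in Hermes 3A. Its ranges did not overlap (log2 difference -1.84, SE 0.555, adjusted p = 0.0292), but the call was lost without 501Mel replicate 2 (-1.39, adjusted p = 0.138). It was -2.52 without 501Mel replicate 1 and -1.20 without Hermes 3A replicate 1. MMP24 (MT5-MMP), known from neural tissue, measured 10.0 and 2.96 CPM in 501Mel and 14.3, 21.8 and 35.5 CPM in Hermes 3A, with a narrow gap between the highest 501Mel and the lowest Hermes 3A library. The log2 difference was -1.87 (SE 0.582, adjusted p = 0.0322), and the call was lost without 501Mel replicate 2 (-1.26, adjusted p = 0.1) and without Hermes 3A replicate 3 (-1.52, adjusted p = 0.0792), while without 501Mel replicate 1 the difference was -3.02. Of its 4414 exonic bases, 961 overlap antisense genes. MMP15 (MT2-MMP) did not separate the lines, at 39.8 and 30.1 CPM against 26.1, 38.8 and 43.4 CPM. Its log2 difference was -0.05 with a 95% interval of -0.63 to 0.54 (adjusted p = 0.889), so a difference over 2-fold in either direction lay outside the interval. MMP23B had 8 and 8 counts in 501Mel and 4, 5 and 0 in Hermes 3A, was not tested, and has a near-identical copy, MMP23A, with which reads may have been shared.

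MMP2, the gelatinase that degrades basement membrane collagen, had similar levels in both lines. It measured 39.8 and 37.2 CPM in 501Mel and 20.4, 38.0 and 57.6 CPM in Hermes 3A. Both 501Mel values fell inside the Hermes 3A range, and the log2 difference was -0.01 with a 95% interval of -0.90 to 0.88 (adjusted p = 0.992). Its sign changed with the scaling and with the libraries left out. The ratio of TIMP2 to MMP2 per kb of median transcript length was 2.59 and 4.01 in 501Mel against 37.7, 21.2 and 14.4 in Hermes 3A. With union exon lengths it was 5.62 and 8.71 against 81.9, 46.0 and 31.2, and the lines were apart with either length. MMP9, the other gelatinase, was near 0, with no count in either 501Mel library and 7, 0 and 0 counts in Hermes 3A.

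TIMP2 and MMP14, the partners in pro-MMP2 activation, also stood in different proportion in the lines. TIMP2 per kb over MMP14 per kb was 0.132 and 0.166 in 501Mel and 0.293, 0.397 and 0.338 in Hermes 3A with median transcript lengths. With union exon lengths the same ratio was 0.613 and 0.773 against 1.36, 1.84 and 1.57. The ratio was lower in 501Mel with either length, but the length decided which gene of the pair was ahead in Hermes 3A. These are RNA ratios, and the amounts of protein were not measured.

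MMP11 (stromelysin-3), which cleaves few matrix proteins and is activated inside the cell by furin, measured 0.851 and 0.701 CPM in 501Mel and 6.91, 6.92 and 4.37 CPM in Hermes 3A. The lines did not overlap (log2 difference -2.96, SE 0.404, adjusted p = 0.00122). MMP11 was the only member of the stromelysin group that could be tested. Of its 5176 exonic bases, 218 overlap the antisense gene CHCHD10. MMP10 had 0 and 1 counts in 501Mel and 1, 1 and 0 in Hermes 3A, and MMP3 had no count in any of the 5 libraries, where 3 counts would be at most 0.101 CPM.

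MMP10 and MMP3 belong to a run of 9 MMP genes on chromosome 11, from 102520508 to 102955734 (435 kb, GRCh38), with no other protein-coding gene annotated inside it. MMP12, also in the run, was listed for neither line. Of the 8 genes of the run listed in at least 1 line, MMP8, the neutrophil collagenase, was the only one with more than 10 counts in a library. It had 33 and 5 counts in 501Mel and 85, 65 and 34 in Hermes 3A, or 0.739 and 0.130 CPM against 2.17, 1.56 and 1.14 CPM. Although the ranges did not overlap, MMP8 was not called (log2 difference -1.88, SE 0.721, adjusted p = 0.0656), and 5 of the 14 alternative analyses called it lower. MMP1, the interstitial collagenase, had 1 and 3 counts in 501Mel and 7, 10 and 7 in Hermes 3A. MMP7, MMP13 and MMP27, listed for 501Mel alone, had at most 1 count in a library, as did MMP20, listed for Hermes 3A alone. MMP8 is named here after its values were seen.

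The ADAMTS family held both the members that were nearly absent from 501Mel and those that were nearly absent from Hermes 3A. ADAMTS7, which cleaves cartilage oligomeric matrix protein (COMP), had 1 and 3 counts in 501Mel and 528, 1207 and 936 in Hermes 3A, or 0.0224 and 0.0779 CPM against 13.5, 29.01 and 31.5 CPM. Its difference was similar in size to that of TIMP3 (log2 difference -8.90, SE 0.688, adjusted p = 0.000128), at -8.26 without 501Mel replicate 1 and -9.92 without replicate 2. Pseudogene copies of ADAMTS7 (ADAMTS7P1, ADAMTS7P3 and ADAMTS7P4) are annotated, and the counting may have split reads among them. ADAMTS12, the other COMP-cleaving member, had 8 and 4 counts in 501Mel and 111, 35 and 42 in Hermes 3A. It too was lower in both 501Mel libraries (log2 difference -3.54, SE 0.727, adjusted p = 0.00646).

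ADAMTS2 and ADAMTS3, which remove the N-terminal propeptide of fibrillar procollagens, were both far lower in 501Mel. ADAMTS2 measured 0.112 and 0.390 CPM in 501Mel and 9.17, 17.7 and 26.2 CPM in Hermes 3A (log2 difference -6.15, SE 0.716, adjusted p = 0.000635), and its difference was -5.51 without 501Mel replicate 1 and -7.27 without replicate 2. ADAMTS3, which also processes the lymphangiogenic factor VEGF-C, had 3 and 2 counts against 285, 111 and 115 (log2 difference -6.19, SE 0.722, adjusted p = 0.000641). In neither gene did the lines overlap. ADAMTS14, the remaining procollagen-processing member, had 2 and 1 counts in 501Mel and 0, 3 and 2 in Hermes 3A and was not tested.

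Among the proteoglycan-cleaving members, ADAMTS1, which cuts versican and aggrecan, was the most abundant, at 22.2 and 8.18 CPM in 501Mel and 65.4, 34.6 and 56.8 CPM in Hermes 3A. All Hermes 3A libraries were above both 501Mel libraries (log2 difference -1.78, SE 0.457, adjusted p = 0.0157), and the difference was -2.68 without 501Mel replicate 1. ADAMTS9, a versican-cleaving protease conserved from worms to mammals, had 0 and 2 counts in 501Mel and 37, 12 and 9 in Hermes 3A. Its pooled ratio was 21.8 in favour of Hermes 3A, with a 95% counting interval of 5.77 to 184 that covers counting error only. The call (adjusted p = 0.0179) was lost without 501Mel replicate 1 (log2 difference -3.23, adjusted p = 0.102), the difference was -3.46 without Hermes 3A replicate 1, and without 501Mel replicate 2 that line had no count. ADAMTS4 and ADAMTS5, the main aggrecanases of cartilage, were not called. ADAMTS4 had 53 and 11 counts in 501Mel and 1, 12 and 4 in Hermes 3A, with overlap between the lines (log2 difference 2.27, adjusted p = 0.0714), and 3 of the 14 alternatives called it higher, among them those without 501Mel replicate 2 and without Hermes 3A replicate 2. ADAMTS5 had 14 and 3 counts against 27, 13 and 3 (adjusted p = 0.431). Both genes are named after their values were seen.

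ADAMTS10, which interacts with fibrillin microfibrils, had 1 and 0 counts in 501Mel and 66, 216 and 142 in Hermes 3A. The pooled ratio was 319, with a counting interval of 56.9 to 12620, and every Hermes 3A library was above both 501Mel libraries (adjusted p = 0.000895). The single 501Mel count was in replicate 1, so leaving that library out put the line at 0, and without replicate 2 the log2 difference was -7.25. ADAMTS13, the protease that cuts von Willebrand factor, measured 2.35 and 3.04 CPM in 501Mel and 4.61, 12.6 and 8.81 CPM in Hermes 3A. The ranges did not overlap (log2 difference -1.69, SE 0.468, adjusted p = 0.0211), but leaving out either 501Mel library, Hermes 3A replicate 2 or Hermes 3A replicate 3 ended the call, with adjusted p-values of 0.0513 to 0.11. ADAMTS6 did not separate the lines, with 18 and 13 counts against 4, 19 and 15 (log2 difference 0.08, adjusted p = 0.933), and is likewise named after its values were seen.

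ADAMTS16, ADAMTS17 and ADAMTS20 were the members called higher in 501Mel. ADAMTS17, a fibrillin-associated protease on chromosome 15 (99971589 to 100342005, GRCh38), had 1133 and 1966 counts in 501Mel and 19, 32 and 22 in Hermes 3A, or 25.4 and 51.1 CPM against 0.484, 0.769 and 0.740 CPM. The lower 501Mel library was far above the highest Hermes 3A library (log2 difference 5.84, SE 0.391, adjusted p = 7.32e-05), and the difference was 5.24 without 501Mel replicate 2. Of the 8242 exonic bases of ADAMTS17, 431 overlap the antisense gene AC084855.1. ADAMTS16, a relative of ADAMTS18 known from kidney and gonad, measured 1.61 and 3.25 CPM in 501Mel and 0.0765, 0.360 and 0.303 CPM in Hermes 3A. It was separated at much lower levels (log2 difference 3.29, SE 0.649, adjusted p = 0.00549), with a difference of 2.69 without 501Mel replicate 2. ADAMTS20, whose mouse orthologue is mutated in the belted white-spotting strain and acts in melanoblast colonisation of the skin, had 83 and 15 counts in 501Mel and none in the 3 Hermes 3A libraries. It was at least 43.5-fold higher in 501Mel, set against a floor of 3 counts over the group (adjusted p = 0.00689), a bound that was 68.5-fold with 501Mel replicate 1 alone and 14.4-fold with replicate 2 alone.

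Below the filter, ADAMTS18 and ADAMTS19 had counts almost entirely in 501Mel. ADAMTS18 had 32 and 1 counts in 501Mel and none in Hermes 3A, at least 14.6-fold higher against the same floor, with nearly all counts in 501Mel replicate 1. ADAMTS19 had 22 and 9 counts against 0, 2 and 0, a ratio of 20.6 with a counting interval of 5.25 to 178. Both were tested and called higher only in the analyses with no filter and without 501Mel replicate 2. The remaining members below the filter, ADAMTS8, ADAMTS15, MMP19 and MMP21, spanned 0 to 11 counts in both lines.

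The order of levels was set by a few genes. Per kb of median transcript length, MMP14 led in both lines, at 613 ± 60.2 CPM per kb in 501Mel (SD, n = 2) and 1735 ± 226 in Hermes 3A (SD, n = 3), followed by TIMP2 at 92.3 ± 23.9 and 587 ± 21.2. ADAMTS17 came next in 501Mel, beside MMP17 at a similar level (45.1 and 43.5 CPM per kb), and the pair did not differ beyond the spread between replicates. That place depended on the length used. With union exon lengths ADAMTS17 was at 4.64 ± 2.2 CPM per kb in 501Mel and came after TIMP1, MMP15, MMP17 and MMP2, and TIMP2 (353 ± 12.7) was ahead of MMP14 (225 ± 29.3) in Hermes 3A. With median lengths, in Hermes 3A the next genes were TIMP1 (301), MMP17 (220) and TIMP3 (88.5). MMP14 alone gave 83.3% to 87.5% of the summed MMP level in the 5 libraries, or 71.7% to 78.1% with union lengths. Within ADAMTS the leading gene differed between the lines, with ADAMTS17 at 49.96% and 82.7% of the family sum in 501Mel and ADAMTS1 at 56.6% to 81.2% in Hermes 3A. With union lengths ADAMTS1 also led in 501Mel replicate 1, at 40.7%. The summed TIMP level was 133 and 122 CPM per kb in 501Mel against 1031, 938 and 960 in Hermes 3A, whereas the summed ADAMTS level was 60.0 and 72.9 against 91.8, 69.7 and 98.9 and overlapped between the lines. The overlap came with the median length only, since the ADAMTS sums were apart in CPM (57.4 and 67.8 against 107.0, 105.3 and 135.8) and per kb of union length (7.71 and 8.74 against 14.8, 14.6 and 18.5).

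Genes that act with these proteases were read from 6 lists, beside the 17.2% of all genes tested that were called higher and the 17.1% called lower. Among activators and surface partners, 4 of 8 tested genes were lower in 501Mel and none was higher. CD44, the hyaluronan receptor that docks MMP14 and MMP9, had 16 and 6 counts in 501Mel against 32697, 46880 and 33526 in Hermes 3A (log2 difference -11.92, adjusted p = 9.22e-06). LRP1, the endocytic receptor that clears MMP, ADAMTS and TIMP proteins, was lower by a log2 difference of -3.30, PLAUR, the urokinase receptor, by -3.21, and FURIN, the convertase that removes the propeptide of membrane-type MMPs and ADAMTS proteases, by -2.32. Among the other inhibitors, 4 of 6 tested genes were lower and none was higher. TFPI2, a Kunitz inhibitor of matrix proteases, had no count in 501Mel and 203, 180 and 39 in Hermes 3A, at least 106-fold more. A2M, the circulating trap inhibitor of proteases, differed by -6.72, RECK, a membrane-anchored MMP inhibitor, by -1.34 and CST3, the cysteine protease inhibitor cystatin C, by -1.08.

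The catalytically inactive ADAMTS-like proteins had 2 of 5 tested genes lower (PAPLN at -2.63 and ADAMTSL4 at -1.52), and the ADAM proteases 2 of 8. In the latter, ADAM12 differed by -3.05, and ADAM33 had 1 and 0 counts in 501Mel against 36, 36 and 48 in Hermes 3A, a ratio of 90.2 with a counting interval of 15.9 to 3593. Of the matrix substrates, 4 of 9 tested were lower, led by COL1A2 at -10.71, COL4A1 at -10.64 and COL4A2 at -10.43, with VWF at -1.73. The proteoglycan BCAN, at 1.13, was the only 1 called higher. COL1A1 and COL3A1 went the other way from COL1A2 without a call. COL1A1 had 281 and 28 counts in 501Mel against 19, 43 and 16 in Hermes 3A (2.35, adjusted p = 0.0508). COL3A1 was at 2.31 (adjusted p = 0.168). DESeq2, edgeR's RLE scaling, no filter and leaving out 501Mel replicate 2 each called COL1A1 higher. Most of its 501Mel counts were in replicate 1, at 281 against 28. Both genes are named after their values were seen. The AP-1 and ETS transcription factors had 5 of 11 lower and 1 higher. FOSL1 at -3.95, JUN at -2.36, JUND at -1.21 and FOSL2 at -1.10 were the largest of the lower genes, and ETV5 was higher at 1.48. The calls of ADAMTSL4, VWF, CST3 and FOSL2 were each lost when 1 library was left out, 501Mel replicate 2 in every case and also others for ADAMTSL4, VWF and CST3. BCAN was called only with both 501Mel libraries and with Hermes 3A replicates 1 and 2 in the fit. These values are log2 differences of 501Mel over Hermes 3A. Shares near the 17.1% of all genes called lower or the 17.2% called higher say nothing about a list. Nor does the lack of a higher call in lists this small.

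**Figure D3:**
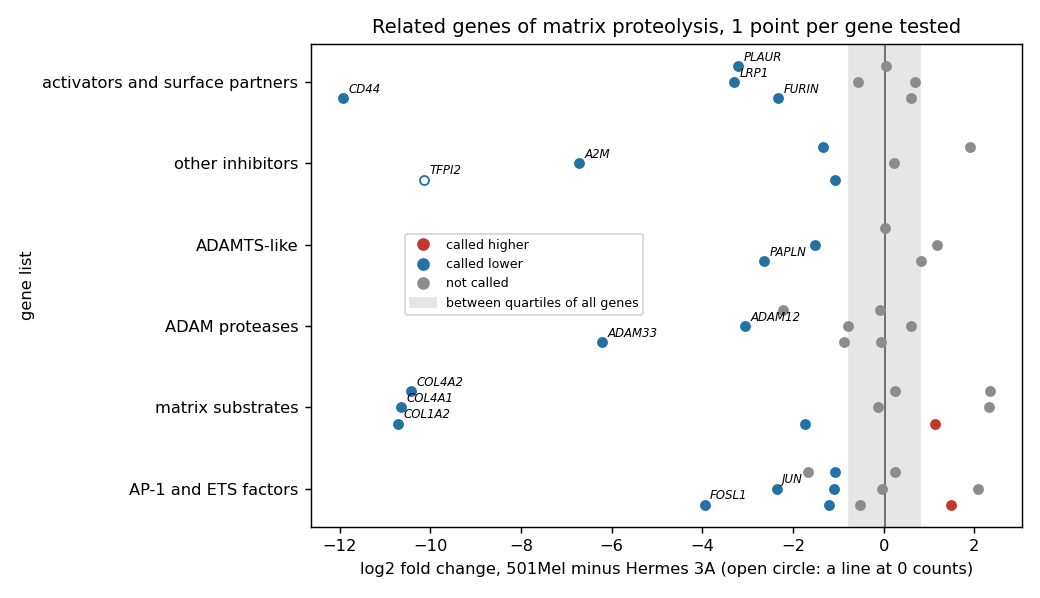
Log2 difference between 501Mel and Hermes 3A for the tested genes of the 6 related lists (x axis), 1 point per gene and 1 line per list, with colours for the call, an open circle for TFPI2, which had no count in 501Mel, and a grey band between the quartiles of all genes. CD44, COL1A2, COL4A1 and COL4A2 lie furthest left. COL1A1 and COL3A1 lie furthest right without a call, and only BCAN and ETV5 are called to the right.

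Markers of other cell types were read beside these results. The 7 fibroblast markers summed to 4.31 to 18.5 CPM in 501Mel and 83.4 to 192 CPM in Hermes 3A. COL1A2 made up 88.4% to 98.6% of the sum in Hermes 3A, and LUM was the highest in 501Mel. Of the 6 tested, only COL1A2 was called, and their median log2 difference was 0.79, opposite in direction to the sum. DCN, a defining fibroblast gene, was at or below 0.157 CPM in every library. Of the 3 endothelial markers 2 were listed (CDH5 and VWF), and they summed to 0.246 to 0.416 CPM in 501Mel and 0.437 to 0.601 CPM in Hermes 3A. The leukocyte markers summed to 34.0 to 92.2 CPM in 501Mel and 0.510 to 0.865 CPM in Hermes 3A, with the lysosomal gene CD68 nearly all of the sum in 501Mel and CD14 the highest in Hermes 3A, and PTPRC was at or below 0.045 CPM. Of the 5 keratinocyte markers 2 were listed in both lines and KRT14 in 501Mel alone. Their sum was 31.6 to 33.6 CPM against 42.8 to 50.9 CPM, nearly all KRT10. The part of COL1A2-expressing or CD68-expressing cells in the protease and inhibitor differences was not tested.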

How the data were processed

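The authors sequenced rRNA-depleted total RNA, treated with duplex-specific nuclease, which lowers abundant transcripts, and deposited raw counts per Ensembl gene for each library. The submitters' processing notes name CASAVA 1.8, TopHat 1.4.1, Bowtie 0.12.7 and hg19. The annotation release and strand setting are not given in the sources used here. GRCh38 positions are annotation only. Members and gene lists were chosen with earlier results of these data known.

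Groups followed the labels (501Mel, n = 2; Hermes 3A, n = 3). The 501Mel files list 37259 genes, the Hermes 3A files 34033 and both 31029, which were fitted with whole-file totals as library sizes. Genes were filtered with filterByExpr (edgeR 4.0.16, R 4.3.3, minimum count 10), leaving 17918, scaled by TMM and tested by the quasi-likelihood test with Benjamini-Hochberg adjustment. The script was tested on simulated data. CPM was computed from the deposited counts, and per-kb levels used GENCODE 29 median transcript length. The SE is the log2 difference over the root of F. Replicates differed by more than counting noise (chi-square per gene 12.8 to 59.5). Counting intervals of pooled ratios and floors cover counting error only. The 95% intervals of MMP2 and MMP15 were built from the SE and the degrees of freedom of the fit. Named members were the TIMPs, called members and the 10 of highest CPM, and related genes the 4 largest called changes of a list in each direction. Alternatives used DESeq2 1.42.0, limma 3.58.1 (voom), other scalings and filters, a replicate block and leaving out each library. Control shRNA libraries are not analysed here.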

Additional observations from a re-analysis of the deposited data

How the results depend on the processing

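Of 22 members followed through 14 alternatives, 16 kept their direction and their side of the threshold in all of them. MMP2 and MMP15, which were not called in any, changed sign. MMP2 was 0.048 with total counts alone, 0.15 with limma-voom, 0.46 with the replicate block and -0.33 to 0.36 with a library left out. MMP15 was 0.011 with total counts alone, 0.12 with the replicate block and -0.28 to 0.13 with a library left out. The other 4 members, MMP16, MMP24, ADAMTS9 and ADAMTS13, each lost their call without at least 1 library, as given beside their values. Members called higher numbered 3, but 6 with no filter and 3 to 6 with a library left out, the added genes being ADAMTS4, ADAMTS18 and ADAMTS19. Related genes called higher numbered 2, but 4 with DESeq2, 5 with no filter and 1 to 4 with a library left out. The median difference of tested members ranged from -2.60 to -1.39 with a library left out. The -1.39 came without 501Mel replicate 2, where 31 members were tested instead of 26, so it covers a different set of members. Replicate numbers were shared by 2 pairs of libraries, with no label of a shared batch, so they were not treated as pairs. Correlations of deviations were 0.0995 and 0.133 for those pairs and -0.133 to 0.0212 for libraries of unlike number. With 2 501Mel libraries the deviations mirror each other, so these correlations cannot decide on pairing. The replicate block called 5646 genes, with MMP8 added to the members called lower. Among the related genes, the block ended the calls of JUND, JUNB, ADAMTSL4 and VWF, total counts alone that of JUNB, and DESeq2 and no filter that of VWF. ADAMTS7 had the lowest difference among members, but TIMP3 was lower with voom, the block and without Hermes 3A replicate 3, and ADAMTS10, then at 0 in 501Mel, without 501Mel replicate 1. An alternative chosen after seeing the data, which kept genes listed for 1 line at 0 in the other, called 6642 genes and the same members. With no filter the median of all genes was 0.13. Of the 20 members not tested, 13 were listed in both lines and fell under the filter, with at most 32 counts in a library, and the others were not listed in both.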
